A study of Mus musculus with 4 samples.

Results

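The 10 genes Ly6a, Ly6c1, Cd34, Dpt, Pi16, Clec3b, Scara5, Cd248, Smoc2 and Gfpt2 mark the fibroblasts and progenitor cells of the adventitia, the outer coat of an artery. They were followed here in cultured aortic smooth muscle cells with and without a floxed autophagy gene. The genes were found by name among the non-control probes of the arrays, which gave 13 of 41174 probes. Of the 10 genes, 9 passed the filter on dim signals, among 12367 genes that passed it in all, and Scara5 did not.

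The cells were primary aortic smooth muscle cells from mice of the strain given in the labels as C57LB/6. The Atg7F/F cells came from mice homozygous for the floxed Atg7 allele and carrying SM22α-Cre. The Atg7+/+ controls had the normal allele and also carried SM22α-Cre, so Cre was present in both genotypes. Atg7 encodes an E1-like enzyme needed to form autophagosomes. The SM22α promoter drives Cre in smooth muscle and not in other cells of the vessel wall as a rule, so a cell that never used this promoter could keep its Atg7. The culture medium was DMEM/F-12 containing 10% serum (FBS), and passages ranged from 4 to 10. The labels give neither the passage of a single culture nor the age of the mice. There were 2 biological replicates of each genotype. The Atg7F/F and Atg7+/+ extracts of the same number were hybridised together on 2 Agilent two-colour arrays with exchanged dyes, which made 4 arrays and 8 channels. Nothing in the labels says whether the replicates were separate animals, so p-values measure the spread between these extracts only.

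In an artery, adventitial fibroblasts make collagen and small matrix proteoglycans. A Pi16-positive, Ly6a-positive population among them is regarded as a reserve from which more specialised fibroblasts arise. Stem cell antigen 1, the product of Ly6a, and CD34 have long been used to sort adventitial progenitors, which can take on smooth muscle features in culture. Several of these proteins are not exclusive to fibroblasts. CD34 and Ly6 proteins also occur on endothelial cells, and CD248 occurs on pericytes and activated mesenchymal cells.

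The array reads each gene through a probe of 60 bases. The probe sequences decide which of the closely related Ly6 transcripts a signal can come from, so the most similar stretch of the Ly6a and Ly6c1 probes is shown 5′ to 3′, with the bases that differ in capitals.

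Ly6a: tatGAgttatagaagCtccaaGgtgggAGt

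Ly6c1: tatATgttatagaagGtccaaTgtgggGAt

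Of these 30 bases, 24 were identical. The stretch starts at base 1 of the Ly6a probe and at base 21 of the Ly6c1 probe, and over its full 38 bases 32 were identical (84.2%). The longest identical run was 10 bases. Transcripts that the array design lists for the Ly6c1 probe belong to both Ly6c1 and its near-identical neighbour Ly6c2, so that probe cannot tell these genes apart. The Ly6c2 probe, in contrast, shares no run longer than 6 bases with the Ly6a probe. Probes were compared only with each other and not with transcripts, so binding to a related transcript was not tested. The first 30 bases of the Ly6c2 probe, and those of the probes for Cd34, Pi16 and Clec3b, on which the later comparisons turn, are these.

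Ly6c2: tattatactatcaccatccacacataagta

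Cd34: ccagagatgagaggattgggtgtattctct

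Pi16: gttctacagaggacatgattctggggatac

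Clec3b: gggtgtgaaccacaaagagcagaaggctgt

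In mm9 coordinates of the array design, the probes of Ly6a, Ly6c1 and Ly6c2 lie on the minus strand of chromosome 15. That of Ly6a is at chr15:74825553-74825612, that of Ly6c1 at chr15:74875712-74875771 and that of Ly6c2 at chr15:74938637-74938695. The probe of Cd34 lies at chr1:196787392-196787451, that of Pi16 at chr17:29465606-29465665 and that of Clec3b at chr9:123066320-123066379, all on the plus strand. The exon or untranslated region under each probe is not stated, since mm9 gene models were not used.

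Values are log2 ratios of Atg7F/F over Atg7+/+ after background correction and normalization within each array. A replicate is the mean of its dye-swapped arrays, and a mean ± SD is over the 2 replicates (n = 2). A level is the normalized log2 signal of an extract, averaged over its 2 channels, and is set only against the same probe in other extracts. Each channel had 43.3% to 45.5% of its spots well above background and 0 saturated spots. Atg7 was lower in Atg7F/F on all 4 arrays, at -1.17 in replicate 1 and -1.26 in replicate 2. Of 12 smooth muscle markers 10 passed the filter, among them Acta2 (-0.18 and -0.13), Tagln (-0.19 and -0.27) and Myh11 (0.25 and -0.54), all genes of the contractile apparatus that define the labelled cell type. Of the other 2, Myl9 was bright in every channel and was left out for an uneven spot, and Myocd was dim. Of 13 macrophage and leukocyte markers 7 passed the filter, Lyz2 and Cd68 among them, while Ptprc and Adgre1 were not well above background in any channel.

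At an adjusted p below 0.05, limma called 0 of the 9 genes and 0% of all genes tested. Of the 9, 1 gene, Cd34, had an unadjusted p below 0.05, against 2.98% of all genes. Atg7 itself, the targeted gene, had an unadjusted p by limma of 6.06e-04 and an adjusted p of 0.94. With 2 replicates, a gene that was not called is therefore not shown to be unchanged. The ratios of the 2 replicates had opposite signs in 6 of 9 genes, a share near the 54.5% of all genes. Ly6a, Ly6c1, Pi16, Clec3b and Cd248 were lower in Atg7F/F in replicate 1 and higher in replicate 2, a pattern that 27.8% of all genes had. None of the 9 was higher on all 4 arrays, as 10.6% of all genes were. Cd34 and Dpt were lower on all 4, as 9.94% of all genes were.

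**Figure D1:**
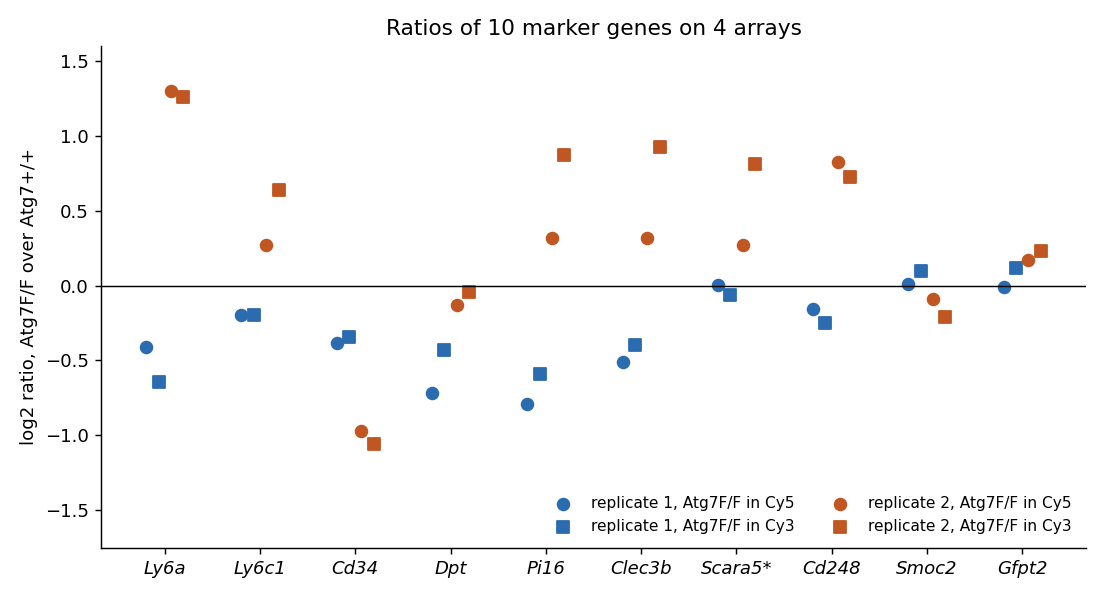
Log2 ratio of Atg7F/F over Atg7+/+ (vertical axis) for the 10 marker genes on each of the 4 arrays, with colour for the replicate and shape for the dye of the Atg7F/F extract; the asterisk marks Scara5, which did not pass the filter. The points of Ly6a split into -0.41 and -0.65 in replicate 1 and 1.30 and 1.26 in replicate 2, while all 4 points of Cd34 and of Dpt lie below 0.

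Among the surface proteins, Ly6a had the widest split. Ly6a encodes stem cell antigen 1, a small protein tethered to the membrane by a lipid anchor. Its raw mean intensity in the Atg7F/F extract of replicate 1 was 478 with Cy5 and 301 with Cy3, and in that of replicate 2 it was 1686 and 1173. In the Atg7+/+ extract it was 640 (Cy5) and 449 (Cy3) in replicate 1, and 678 and 522 in replicate 2. Within each dye, therefore, the Atg7F/F extract of replicate 2 was the brightest and that of replicate 1 the dimmest, with both Atg7+/+ extracts between them. The arrays of replicate 1 gave ratios of -0.41 and -0.65, and those of replicate 2 gave 1.30 and 1.26. Ly6a was thus 1.44-fold lower in Atg7F/F in replicate 1 and 2.43-fold higher in replicate 2, with a mean of 0.38 ± 1.28 (adjusted p = 1.00 by limma). Its levels were 8.55 and 10.60 in the Atg7F/F extracts and 9.08 and 9.32 in the Atg7+/+ extracts. The Atg7F/F extracts lay 4.13-fold apart, more than the 1.18-fold between the Atg7+/+ extracts.

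Ly6c1 encodes a related lipid-anchored protein known from monocytes, endothelial cells and fibroblasts. Its probe was dim, at 1.23 to 2.65 times the local background. Ratios were -0.19 and -0.20 for replicate 1 and 0.27 and 0.64 for replicate 2, with a mean of 0.13 ± 0.46. The levels were 6.50 and 7.29 in Atg7F/F and 6.70 and 6.84 in Atg7+/+, the same order of the 4 extracts as for Ly6a. The offset of 50 added in the background correction draws the ratio of so dim a probe towards 0. With an offset of 0 the replicates of Ly6c1 stood at -0.57 and 0.80. The scanner software's processed signals, which differ in the dye normalization too, put them at -0.69 and 1.62.

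CD34 is a sialomucin of progenitor cells, fibroblasts and endothelium. Raw intensities of Cd34 in the Atg7F/F extract were 1635 (Cy5) and 1041 (Cy3) in replicate 1, and 1650 and 1230 in the other replicate. Those of the Atg7+/+ extract were 1850 and 1487 for replicate 1 and 3522 and 2779 for replicate 2. Within each dye both Atg7F/F values were below both Atg7+/+ values, and the Atg7+/+ extract of replicate 2 stood highest. Array ratios were -0.39 and -0.34 for replicate 1 and -0.97 and -1.06 for replicate 2. That is 1.29-fold and 2.02-fold lower in Atg7F/F, with a mean of -0.69 ± 0.46. The unadjusted p by limma was 0.038 and the adjusted p was 1.00. Levels were 10.31 and 10.62 in Atg7F/F and 10.67 and 11.63 in Atg7+/+. The genotypes did not overlap, a separation towards lower values in Atg7F/F that 10.1% of all genes had, but the nearest Atg7F/F and Atg7+/+ extracts were almost level, and the Atg7+/+ extracts lay 1.95-fold apart.

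Endothelial markers are given beside Cd34, since endothelium makes CD34 too. All 16 of the list passed the filter and limma called 0. On all 4 arrays 12 were lower in Atg7F/F and 0 were higher, against 9.94% and 10.6% of all genes. Of the 12, Kdr was well above background on only 2 arrays in Atg7F/F and passed the filter through Atg7+/+. Their median ratio was -0.19 in replicate 1 and -0.51 in replicate 2, against medians of 0.00016 and 0.0053 over all genes. The summed level, in linear signal units, was 13931 and 15607 in the Atg7F/F extracts and 15439 and 27881 in the Atg7+/+ extracts. By this sum the Atg7+/+ extract of replicate 2 stood highest here too. Bright probes weigh most in such a sum, here Mmrn2 and Emcn, with levels of 13.52 and 12.80 in that extract. Cldn5 and Flt1 were lowest in the same extract. The junction proteins Pecam1 and Cdh5 had ratios of -0.41 and -0.56 and of -0.27 and -0.48. The other 4 genes did not keep 1 sign: Cldn5, also of cell junctions, stood at -0.59 and 0.69, Flt1 at 0.06 and 0.64, Emcn at 0.17 and -1.34 and Robo4 at -0.04 and 0.01. The part of endothelial RNA in the Cd34 result was not tested. In RNA from a whole culture, fewer cells of a type and less RNA per cell cannot be told apart.

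CD248, or endosialin, is a transmembrane glycoprotein of fibroblasts and pericytes. The Cd248 probe was bright, with intensities from 41081 to 117332, and unsaturated. In the Atg7F/F extract they were 78254 (Cy5) and 41081 (Cy3) for replicate 1 and 117332 and 77816 for replicate 2. In the Atg7+/+ extract they were 79366 and 52142 for replicate 1 and 72597 and 41700 for replicate 2. The Atg7F/F extract of replicate 2 was the brightest of the 4 with either dye. Ratios were -0.16 and -0.25 for replicate 1 and 0.83 and 0.72 for replicate 2, with a mean of 0.29 ± 0.69. The other Cd248 probe gave -0.14 and 0.60 in the replicates. Both probes of this gene therefore showed the split, far above background.

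**Figure D2:**
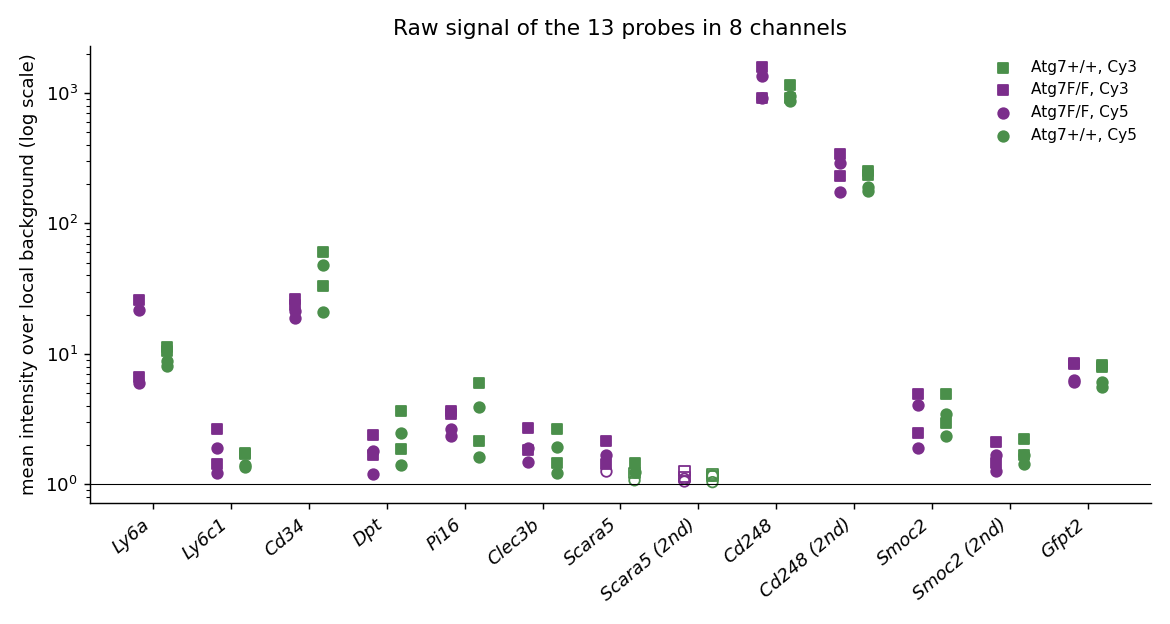
Mean intensity divided by local background (vertical axis, log scale) for each of the 13 probes in the 8 channels, with colour for genotype and shape for dye; open symbols were not well above background. The Cd248 probes lie far above all others, whereas Ly6c1 lies between 1.23 and 2.65 and the second Scara5 probe has open symbols throughout.

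SCARA5 is a scavenger receptor that takes up ferritin. Scara5 was at the edge of detection. The brighter of its 2 probes was well above background in the Atg7F/F channel of 3 arrays and in the Atg7+/+ channel of 2, and the other probe in none of the 8 channels. In replicate 1 the brighter probe gave 100 (Cy5) and 63.1 (Cy3) in Atg7F/F and 103 and 65.7 in Atg7+/+. In replicate 2 it gave 132 and 97.1 in Atg7F/F and 85.4 and 56.4 in Atg7+/+. Both Atg7F/F channels of replicate 2 were well above background and both Atg7+/+ channels were not. The ratio in replicate 1 was -0.029. In replicate 2 Scara5 was at least 1.45-fold higher in Atg7F/F, a bound set by the measured dim signal. Scara5 was not tested in the main fit, because it did not pass the filter. With no filter on background flags, its adjusted p by limma was 0.998 over 28293 genes. The scanner software's processed signals put its replicates at -0.58 and 4.63, with the same dim Atg7+/+ signal in replicate 2.

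Among the secreted and matrix-associated products, Pi16 and Clec3b split in the same way as Ly6a. PI16, peptidase inhibitor 16, is a protein of the CAP family. Raw Pi16 intensities in Atg7F/F were 222 (Cy5) and 154 (Cy3) for replicate 1 and 194 and 162 for replicate 2. In Atg7+/+ they were 320 and 262 for replicate 1 and 129 and 97.0 for replicate 2. Here it was the Atg7+/+ extracts that stood apart, with the Atg7F/F extracts between them. Ratios were -0.79 and -0.59 for replicate 1 and 0.32 and 0.87 for replicate 2, so Pi16 was 1.61-fold lower in Atg7F/F in replicate 1 and 1.51-fold higher in the other. The mean was -0.05 ± 0.91. Levels were 7.55 and 7.66 in Atg7F/F and 8.24 and 7.06 in Atg7+/+, which is 2.27-fold between the Atg7+/+ extracts and 1.08-fold between the Atg7F/F extracts. The sign of the mean turned with the processing, to 0.02 without background subtraction and 0.25 with the processed signals. The latter differ in the dye normalization too.

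Clec3b encodes tetranectin, a C-type lectin that binds plasminogen. In Atg7F/F its intensities were 128 (Cy5) and 82.3 (Cy3) for replicate 1 and 158 and 125 for replicate 2. In Atg7+/+ they were 155 and 115 for replicate 1 and 106 and 69.1 for replicate 2. The genotypes changed place between the replicates. The ratios were -0.51 and -0.40 for replicate 1 and 0.32 and 0.93 for replicate 2, with a mean of 0.08 ± 0.76. The Atg7F/F extracts lay 1.45-fold apart and the Atg7+/+ extracts 1.46-fold apart, in opposite directions. Clec3b was dim, at 1.22 to 2.71 times background, with replicates at -0.86 and 1.19 with an offset of 0 and at -0.98 and 2.16 in the processed signals.

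Dpt encodes dermatopontin, a matrix protein that binds decorin and collagen. Its intensities in Atg7F/F were 156 (Cy5) and 105 (Cy3) for replicate 1 and 98.0 and 72.8 for replicate 2. In Atg7+/+ they were 200 and 169 for replicate 1 and 111 and 88.2 for replicate 2. Replicate 2 was the dimmer in both genotypes, and Atg7F/F the dimmer genotype in both replicates. The ratios of -0.72 and -0.43 in replicate 1 and -0.13 and -0.05 in replicate 2 gave a mean of -0.33 ± 0.34 and an unadjusted p by limma of 0.13, with an adjusted p of 1.00. Levels of 7.05 and 6.66 in Atg7F/F overlapped 7.62 and 6.75 in Atg7+/+. The replicate means of Dpt with processed signals were -0.99 and -0.88, and with the same background correction but no offset they were -0.88 and -0.13.

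Smoc2, a calcium-binding matricellular protein of the SPARC family, and Gfpt2, an enzyme of the hexosamine pathway, had small ratios on every array. Smoc2 had ratios of 0.01 and 0.10 in replicate 1 and -0.09 and -0.21 in replicate 2, with a mean of -0.05 ± 0.15, and its other probe gave 0.03 and -0.16. The Smoc2 levels were 8.11 and 7.28 in Atg7F/F and 8.05 and 7.44 in Atg7+/+. The number of the replicate, not the genotype, therefore separated the Smoc2 levels, with replicate 2 lower by 1.77-fold in Atg7F/F and 1.53-fold in Atg7+/+. Gfpt2 had ratios of -0.01 and 0.12 in replicate 1 and 0.17 and 0.23 in replicate 2, with a mean of 0.13 ± 0.11. The Gfpt2 levels, 8.79 and 8.93 in Atg7F/F and 8.73 and 8.73 in Atg7+/+, did not overlap, with Atg7F/F the higher, as in 11.4% of all genes, but spanned only 0.20 log2 units.

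**Figure D3:**
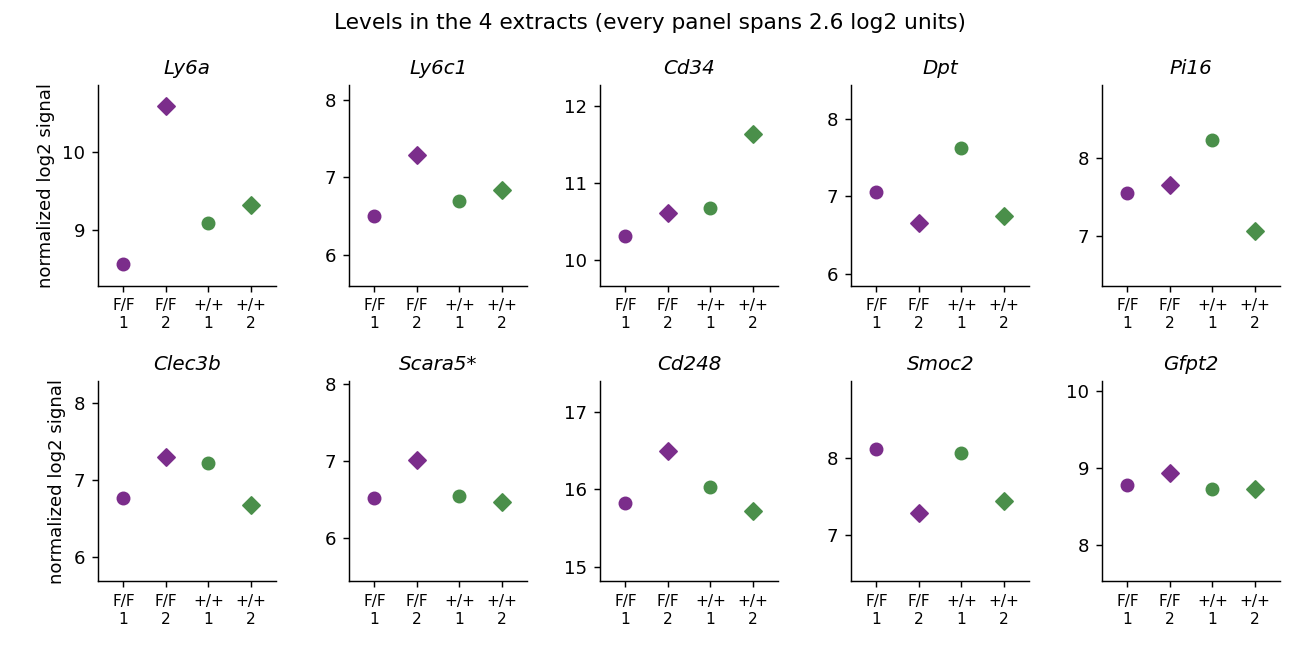
Normalized log2 signal (vertical axes, equal spans) of the 10 marker genes in the Atg7F/F and Atg7+/+ extracts of replicates 1 and 2; levels are comparable within a panel and not between panels, and the asterisk marks Scara5. Ly6a is highest in the Atg7F/F extract of replicate 2, Cd34 in the Atg7+/+ extract of replicate 2, and Pi16 in the Atg7+/+ extract of replicate 1.

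The 4 extracts could thus be ordered gene by gene. In 5 of 9 genes the Atg7F/F extract of replicate 2 had the highest level, as it had in 34.2% of all genes, and in 7 of 9 the ranges of the genotypes overlapped, as in 78.4% of all genes. Cd34 and Gfpt2 were the genes without overlap. The Atg7F/F extract of replicate 2 was above that of replicate 1 in 7 of 9 genes. The Atg7+/+ extract of replicate 2 was below that of replicate 1 in 6 of 9, Gfpt2 among them at a difference of only -0.002. For these counts the share over all genes was not taken. Ly6a alone had Atg7F/F extracts at least 2-fold apart, as had 1.80% of all genes, and Pi16 alone had Atg7+/+ extracts at least 2-fold apart, as had 1.42%.

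Both arrays of a replicate had the same sign in 8 of 9 genes in replicate 1, as in 59.1% of all genes, and in 9 of 9 in replicate 2, as in 73.2%. In 7 of 9 genes both arrays of replicate 2 lay above both arrays of replicate 1, as they did in 31.2% of all genes. In 3 of 9, Ly6a, Pi16 and Clec3b, the ratio in replicate 2 exceeded that in replicate 1 by at least 1 log2 unit, as it did in 1.64% of all genes. The median ratio of the 9 genes was -0.36 in replicate 1 and 0.46 in replicate 2. The genes were chosen with earlier results of these data known, so these counts are descriptive and test nothing. All 4 arrays lay on 1 slide.

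**Figure D4:**
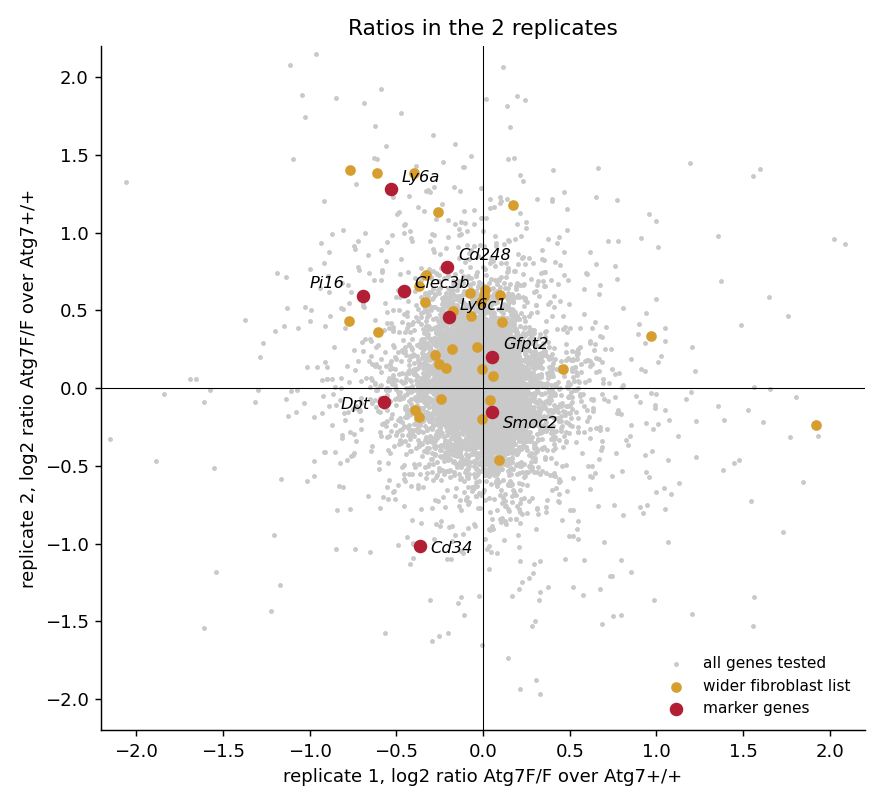
Log2 ratio in replicate 1 (horizontal axis) against that in replicate 2 (vertical axis) for all 12367 genes tested (grey), the wider fibroblast list (yellow) and the 9 marker genes that passed the filter (red, named); 26 genes lie beyond the axis limits of 2.2. The upper left field, lower in replicate 1 and higher in replicate 2, holds Ly6a, Ly6c1, Pi16, Clec3b and Cd248.

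A wider list of 40 other fibroblast genes was read in the same fit, to place the markers among their kind. Of these, 34 passed the filter, and Dpp4, Sema3c, Fap, Gli1, Ptch1 and Ccl11 did not. limma called 0 of the 34, and 1 had an unadjusted p below 0.05. On all 4 arrays 4 were higher (11.8%) and 3 lower (8.82%) in Atg7F/F, close to the 10.6% and 9.94% of all genes. The 4 higher genes were the fibrillar collagens Col3a1 (0.17 and 1.18 in the replicates) and Col1a1 (0.10 and 0.60), the annexin Anxa3 (0.97 and 0.33) and the receptor-like gene Pdgfrl (0.46 and 0.12). The 3 lower genes were the hyaluronan synthase Has1 (-0.37 and -0.19), the complement regulator Cd55 (-0.39 and -0.14) and the laminin chain Lama2 (-0.24 and -0.07).

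The replicates of the wider list, also chosen with earlier results of these data known, differed as well. The median ratio was -0.12 in replicate 1 and 0.39 in replicate 2. Of the 34 genes, 19 were lower in Atg7F/F in replicate 1 and higher in replicate 2, as were 27.8% of all genes. In 26 of the 34 both arrays of replicate 2 lay above both of replicate 1, as in 31.2% of all genes. In 20 of the 34 the Atg7F/F extract of replicate 2 had the highest level, as in 34.2% of all genes. The ratio in replicate 2 was higher by at least 1 log2 unit in 8, as it was in 1.64% of all genes. Among these 8, chosen after their values were seen, were the collagen-associated Col14a1 (-0.26 and 1.13), the leucine-rich repeat gene Islr (-0.61 and 1.38), the globin Cygb (-0.40 and 1.38) and the chemokine receptor Ackr3 (-0.77 and 1.40). The chemokine gene Cxcl14 went the other way, at 1.92 and -0.24, a gap about as wide as that of Ackr3, and so did the transcription factor gene Osr1, at 0.09 and -0.46. The general fibroblast gene Pdgfra, which encodes a growth factor receptor, stood at 0.06 and 0.08.

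The small proteoglycans of collagen fibrils were split in sign too. Dcn, for decorin, had ratios of -0.33 and 0.55, and Lum, for lumican, of -0.17 and 0.50. The levels of Dcn were 12.37 and 11.13 in Atg7F/F and 12.70 and 10.58 in Atg7+/+. Both extracts of replicate 1 were thus above both extracts of replicate 2, and the step between replicates was larger in Atg7+/+.

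Markers of other cell types gave these values beside the split. The 6 pericyte markers all passed the filter, with medians of -0.17 in replicate 1 and 0.51 in replicate 2 and summed levels of 19153 and 23555 in Atg7F/F and 22314 and 23658 in Atg7+/+. Of the 10 smooth muscle markers measured, 1 was lower in replicate 1 and higher in replicate 2, with medians of -0.12 and -0.15. Their summed level was 342241 and 308442 in Atg7F/F and 361084 and 358387 in Atg7+/+. Of 13 macrophage and leukocyte markers 7 passed, with medians of -0.03 and 0.03 and summed levels of 2245 and 4858 in Atg7F/F and 2861 and 3522 in Atg7+/+. Ptprc, Adgre1, Itgam, C1qa and Tyrobp were among those that did not pass. The macrophage gene Cd68 stood at -0.43 and -0.30. Lyz2, the lysozyme gene of macrophages, named after its values were seen, stood at -0.50 and 0.58. Its levels were 10.45 and 11.97 in Atg7F/F and 10.95 and 11.38 in Atg7+/+, so it was split as the fibroblast markers were. Bright probes weigh most in the summed level of the 7 macrophage and leukocyte markers, here Lyz2. The next brightest, Csf1r, had levels of 7.84 and 7.99 in Atg7F/F and 7.76 and 7.76 in Atg7+/+. Of 7 mesothelial markers 2 passed, with medians of 0.02 and -0.61, and of 7 adipocyte markers 3 passed, with medians of 0.32 and 0.32. The 4 of 5 Schwann cell markers that passed had medians of 0.95 in replicate 1 and -0.38 in replicate 2, the reverse of the order among the fibroblast markers. Among them, named after their values were seen, Ngfr stood at 2.73 and -1.06 and Sox10 at 1.45 and -0.48, while S100b stood at -0.74 and 0.89. The part of these cell types in the marker values was not tested.

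Ly6a and Ly6c1 belong to a gene cluster on chromosome 15, and 10 of its 14 listed genes passed the filter. Ly6c2, whose probe lies 113.1 kb from that of Ly6a, followed it most closely in value. The ratios of Ly6c2 were -0.51 and -0.71 for replicate 1 and 1.55 and 1.40 for replicate 2. The levels of Ly6c2 were 10.87 and 13.09 in Atg7F/F and 11.48 and 11.62 in Atg7+/+, again with the Atg7F/F extracts on either side of the Atg7+/+ extracts and 4.68-fold apart. The Ly6c2 probe shares no run over 6 bases with that of Ly6a, but binding of either to the other gene's transcript was not tested. The Ly6c1 probe is listed for Ly6c2 transcripts too.

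Of the other genes of the cluster, Ly6i, at -12.1 kb from the Ly6a probe, had ratios of -0.13 and 0.37, Slurp1 of -0.19 and 0.54, and Ly6d of -0.06 and 0.20. Ly6k was higher in Atg7F/F in both replicates, at 0.10 and 0.80. Ly6e, at -36.1 kb and widely expressed, was at -0.02 and -0.17. Lynx1, which modulates nicotinic receptors, was at -0.14 and -0.17, and Gpihbp1, which anchors lipoprotein lipase to capillaries, was at -0.03 and 0.01. The split was therefore not shared by all genes of the cluster. Of the 10, 7 were lower in replicate 1 and higher in replicate 2, Gpihbp1 by a trace, as were 27.8% of all genes. The Ly6c1 probe is listed for Ly6c2 too, so these genes are not separate readings. Ly6d, Ly6i, Slurp1 and Gpihbp1 were dim, at levels from 6.55 to 7.20. Ly6e, the second nearest to Ly6a in distance, did not have the split. Psca, Ly6f, Ly6g and Ly6h gave no tested value.

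**Figure D5:**
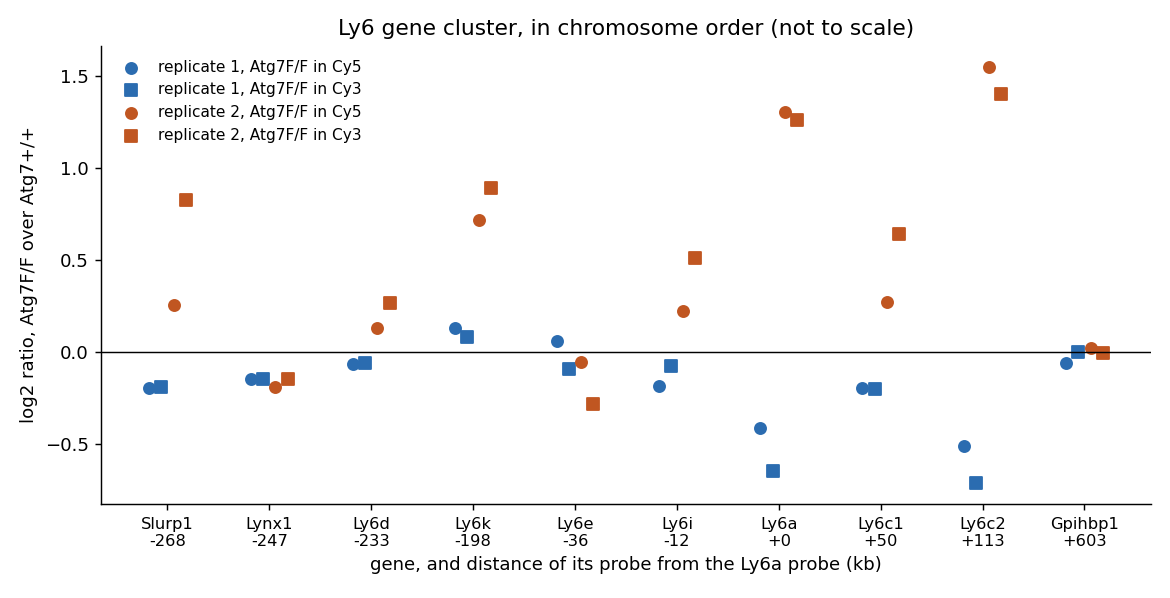
Log2 ratio of Atg7F/F over Atg7+/+ (vertical axis) on each of the 4 arrays for the 10 genes of the Ly6 cluster that passed the filter, in chromosome order with the distance from the Ly6a probe in kb under each name (positions not to scale). Ly6a and Ly6c2 lie below 0 in replicate 1 and between 1.26 and 1.55 in replicate 2, while Ly6e, Lynx1 and Gpihbp1 lie near 0 in both.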

How the data were processed

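The deposited scanner files hold the mean intensity and local background intensity of every spot in each dye, not normalized, per the file headers. The log10 Cy5/Cy3 ratio deposited beside them was not used. Per the submitters' processing notes the software was Agilent Feature Extraction 10.1.1.1. The deposited series table holds log2 ratios by the authors, which equalled the log2 ratio of the software's processed signals, turned to Atg7F/F over Atg7+/+, within 0.001 for 100% of 41174 probes on every array. Their medians were 0.199, -0.094, 0.081 and -0.037, so no centring was applied.

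Intensities were background-corrected with limma 3.58.1 in R 4.3.3 (normexp, offset 50), and normalized by loess within arrays. Dye swaps were averaged, and the ratios were tested against 0 with lmFit and eBayes, two-sided, with 3.18 degrees of freedom and Benjamini-Hochberg adjustment over 12367 genes. Levels were also scaled between arrays (Aquantile). Probes needed no uneven spot, which 35 had, and a signal well above background in at least 1 genotype on all 4 arrays. Of all probes 17110 passed, and 25097 were named by RefSeq accession. The brightest probe stood for a gene. The code was tested on simulated data with known changes. Their recovery was required only where the simulated spread between replicates was small. Figures were drawn with matplotlib 3.10.9.

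The members, the lists and the rule for named genes were chosen with earlier results of these data known. The rule named all members, Atg7, the Ly6 cluster, Pdgfra, Lum, Dcn, Col1a1, Col3a1, 8 cell type markers and, of the wider list, up to 5 genes a direction with 1 sign on all 4 arrays and the largest mean ratio. Each array holds extracts of 1 number, so the pair is a block by design; across genes, the deviations from the genotype mean of extracts sharing a number correlated at 0.18.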

Additional observations from a re-analysis of the deposited data

How the results depend on the processing

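No marker gene and no gene of the wider list was called by limma under any of the 11 test alternatives run, with the smallest adjusted p for a marker at 0.42, for Cd34. Over all genes the count of calls was 0, but 9 with the 4 arrays as samples and the pair as a random block (dye-swap correlation 0.47), and 1 without the replicate block, with extracts unpaired. Alternatives that changed only the filter, the prior variance or the blocking left the ratio of each marker unchanged. Under those only the adjusted p could move, and the deposited table repeats the processed signals. With these fixed and repeated values counted in, 95 of 99 values of the 9 markers kept their direction and side of the threshold. The other 4 were Pi16, whose mean of -0.05 turned to 0.015 with no offset, 0.020 without background subtraction, and 0.25 with the processed signals and the deposited table; the cause was not tested. Leaving out a replicate leaves 1 value and no test. The values ranged from -0.53 to 1.28 for Ly6a, -0.20 to 0.46 for Ly6c1, -0.69 to 0.59 for Pi16, -0.46 to 0.62 for Clec3b, -0.21 to 0.78 for Cd248, -0.15 to 0.054 for Smoc2, -1.02 to -0.36 for Cd34, -0.57 to -0.09 for Dpt and 0.054 to 0.20 for Gfpt2. For Scara5, whose Atg7+/+ signal in replicate 2 was not well above background, the computed values of -0.029 and 0.54 are no measured ratio pair, since replicate 2 gives only a bound. Dim probes limit Ly6c1, Clec3b and Dpt, whose means were 0.47, 0.59 and -0.94 with the processed signals.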
